A study of Mus with 6 samples.

Results

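The genes described here encode the heat shock proteins of mouse CD4+ T cells together with the proteins that steer them, namely the DNAJ and BAG cochaperones, several HSP90 cochaperones, the cytosolic chaperonin CCT, the mitochondrial chaperonin and the heat shock factors. They were taken by symbol from a table of 10995 protein-coding genes: symbols that begin with Hsp or Dnaj, Cct2 to Cct8, Bag1 to Bag6, and Tcp1, Hsf1, Hsf2, Stip1, Ahsa1 and Chordc1. Of these genes, 78 were listed and 68 averaged 1 FPKM or more (fragments mapped to a transcript, scaled for its length and for the library's total) in the 6 libraries. The choice used the mean level over all libraries and no difference between groups.

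RNA-Seq was done on naive CD4+ T cells from the spleen of WT mice that had been stimulated for 3 days with antibodies to CD3 (5 µg/mL) and CD28 (2 µg/mL) in the presence of IL-2 (100 U/mL). During this time 3 samples received anti-VEGF-B, an antibody that neutralizes vascular endothelial growth factor B, and 3 received normal IgG, both at 1 µg/mL. The comparison asks how transcripts differ when the VEGF-B that activated T cells release is blocked. All 6 samples were stimulated in the same way, and resting cells were not analysed here.

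HSP70 proteins bind stretches of unfolded protein and release them in a cycle driven by ATP. J proteins, which carry the DNAJ domain, bring clients to HSP70 and start ATP hydrolysis, while HSP110 proteins, BAG proteins and Hspbp1 help nucleotide leave and so end the cycle. HSP90 takes over clients such as kinases and steroid receptors, Stip1 links HSP70 to HSP90, and the chaperonin CCT folds actin and tubulin inside a closed chamber. The endoplasmic reticulum (ER) and the mitochondrion have their own HSP70, HSP90-type proteins and J proteins. T cells that grow and divide after activation make protein at a high rate, and kinases of T cell receptor signalling, Lck among them, are known HSP90 clients.

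The listed FPKM summed to between 260058 and 276622 per library, and the number of reads behind them is unknown. All 8 T cell markers were listed, with a summed level of 574.1 to 617.2 FPKM with anti-VEGF-B and 565.8 to 651.0 with IgG. Single markers differed in the limma fit described below. Cd3e (log2 fold change -0.51, adjusted p = 0.0197) and Cd5 (-0.38, adjusted p = 0.0343) were called lower, as were 23.8% of all genes. No other T cell marker was called. CD8 markers (both listed) summed to 3.32 to 4.69 against 2.29 to 4.22 FPKM, with Cd8a at 0 in 1 library, and the single B cell marker listed of 5 stayed at 0.798 to 1.33 against 0.665 to 1.34 FPKM. The NK cell and erythroid markers were not analysed here. The 6 myeloid markers listed of 8 summed to 13.3 to 14.6 FPKM with anti-VEGF-B and to 14.2, 15.2 and 37.5 FPKM in IgG replicates 1 to 3. IgG replicate 2 stood apart on the first principal component of all genes tested (65.1% of the variance), at 27.2 where the other IgG libraries were at 8.76 and 11.8 and the anti-VEGF-B libraries between -21.0 and -13.1. Nothing in the labels says that the replicates are separate animals or cultures, and p-values measure the spread between these samples, which may be technical.

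The 8816 genes that averaged 1 FPKM or more were tested with limma on the log2(FPKM + 1) scale. A gene was called at a Benjamini-Hochberg adjusted p under 0.05, and each log2 fold change below is anti-VEGF-B minus IgG on that scale, which understates the change of low genes. Of all genes tested, 28.7% were called, 23.8% lower and 4.87% higher with anti-VEGF-B, and the median log2 fold change was -0.15. Of the 68 chaperone genes, 11 rose, 12 fell and 45 were not called, with a median log2 fold change of -0.049. Log2 fold changes were below 0 in 38 of the 68 genes (71.2% of all genes) and above the median of all genes in 43 (50.0% of all genes). At an unadjusted p under 0.05 and a log2 fold change beyond 0.5 in size, 4 were lower (11.3% of all genes) and 6 higher (1.4% of all genes). The groups did not overlap in 20 chaperone genes that were lower and 14 that were higher, where 38.5% of all genes were apart and lower and 10.5% apart and higher. Among all genes, 83.0% of the calls were lower as deposited, 50.9% after quantile normalization and 37.1% after median centring of the libraries. Among the chaperone genes the split was 12 lower and 11 higher as deposited, 6 and 12 after quantile normalization, and 6 and 14 after median centring. Without 1 library the chaperone counts were lowest for anti-VEGF-B replicate 3, at 5 lower and 4 higher, followed by 7 and 7 without anti-VEGF-B replicate 2 and 7 and 8 without IgG replicate 2.

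**Figure D1:**
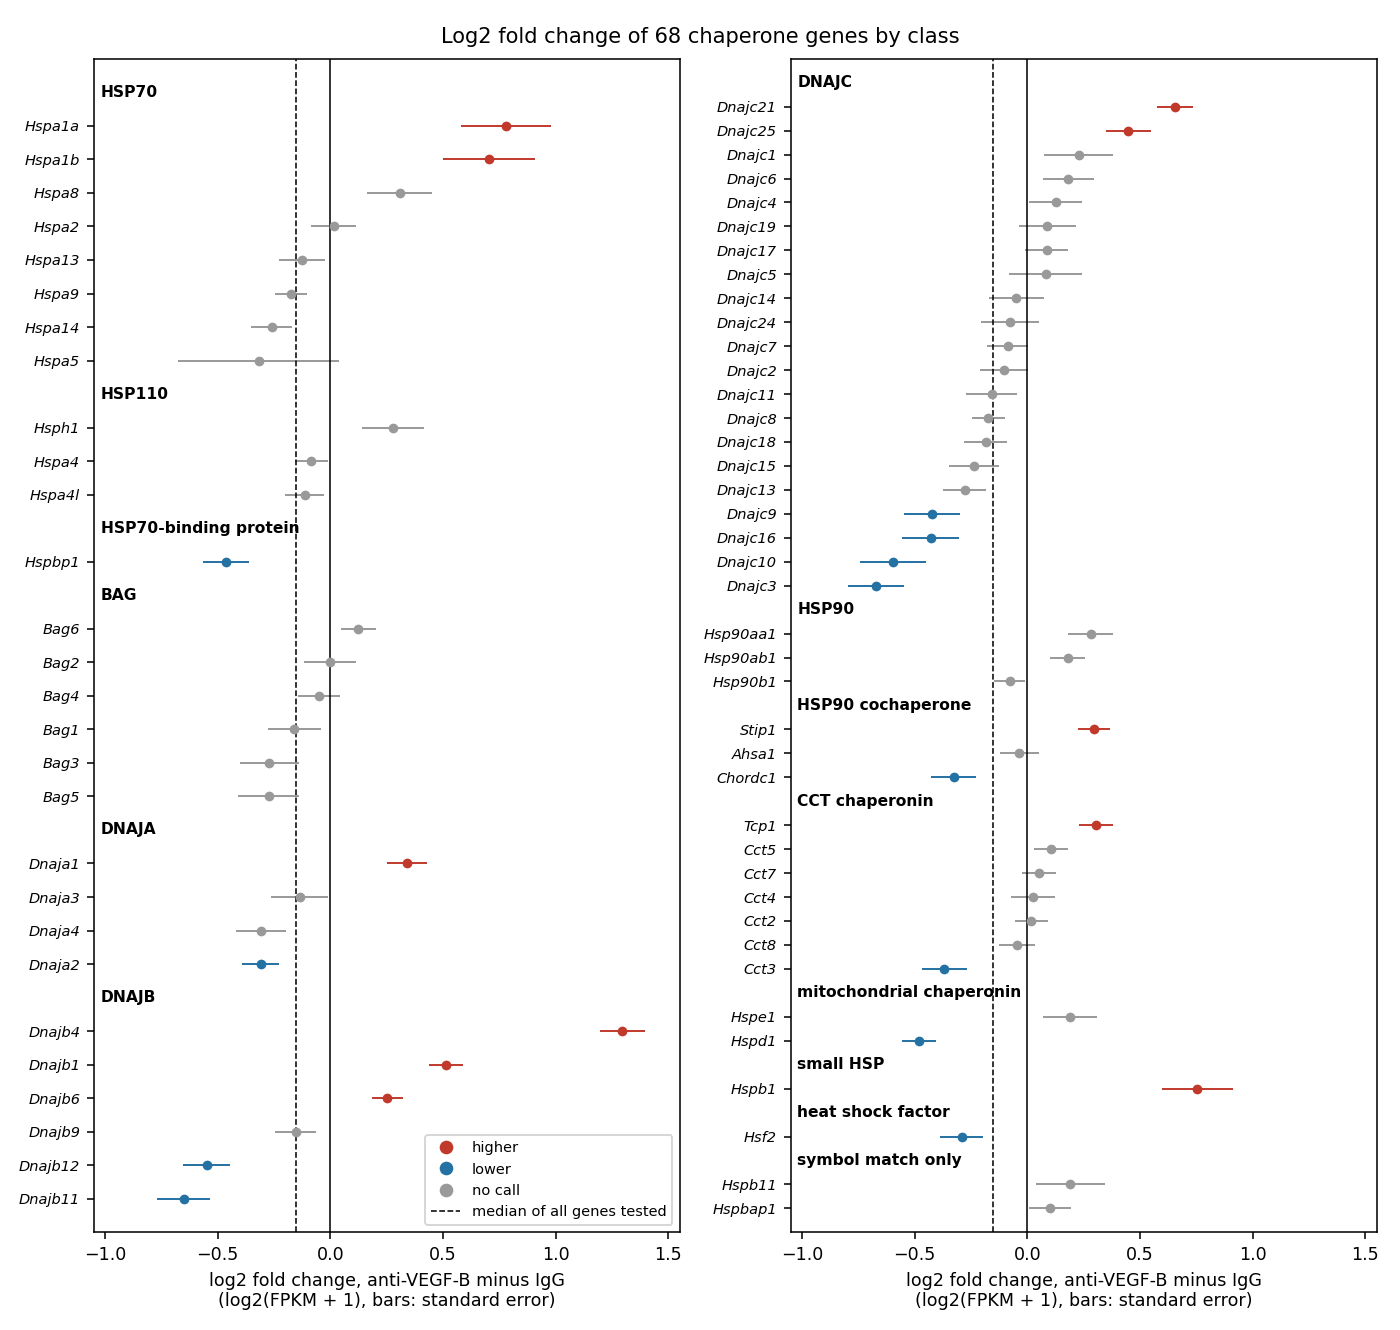
Log2 fold change of the 68 chaperone genes by class, anti-VEGF-B minus IgG on the log2(FPKM + 1) scale, with the standard error as a bar. Red points were called higher (11 genes), blue points lower (12 genes) and grey points were not called; the dashed line marks the median of all 8816 genes tested at -0.15, and Dnajb4 lies furthest to the right at 1.30.

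The 2 heat-inducible HSP70 genes of the cytosol rose, and no other HSP70 member was called. Hspa1a (ENSMUSG00000091971.3; GRCm38, chr17:34969190-34972156, minus strand) and Hspa1b (chr17:34956436-34959238, minus strand) encode HSP70 proteins that are near-identical and classically induced by heat. Hspa1a was at 83.4, 113.8 and 105.0 FPKM in anti-VEGF-B replicates 1 to 3 and at 66.9, 40.2 and 71.6 FPKM in the IgG replicates. Hspa1b was at 105.4, 135.9 and 124.9 FPKM with anti-VEGF-B and at 86.2, 50.4 and 93.9 FPKM with IgG. Every anti-VEGF-B library exceeded every IgG library for both genes, and the log2 fold changes were 0.78 (SE 0.20, adjusted p = 0.0223) for Hspa1a and 0.70 (SE 0.21, adjusted p = 0.0334) for Hspa1b. The 2 genes lie 9951 bases apart and their reads may have been split between them. The ratio of Hspa1a to Hspa1b was 0.762 to 0.841 over the 6 libraries, which cannot show whether reads were shared. The 2 calls may therefore not be independent. Their sum was 188.7, 249.8 and 229.9 FPKM with anti-VEGF-B and 153.1, 90.5 and 165.5 FPKM with IgG. Leaving out anti-VEGF-B replicate 2 or 3 raised the adjusted p to 0.0661 and 0.0673 for Hspa1a and to 0.0925 and 0.0875 for Hspa1b, and quantile normalization raised that of Hspa1b to 0.0710. IgG replicate 2 was the lowest library for both, and without it the log2 fold changes were 0.52 for Hspa1a and 0.43 for Hspa1b. In bulk RNA, a change in the number of cells that carry a transcript and a change in RNA per cell cannot be told apart.

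Hspa8, the constitutive HSP70 of the cytosol and the second most abundant chaperone transcript, was at 734, 548 and 607 FPKM with anti-VEGF-B and at 509.5, 419 and 604 FPKM with IgG. The groups overlapped through IgG replicate 3, and the difference did not pass the test (log2 fold change 0.31, SE 0.15, adjusted p = 0.135). The Hspa1a and Hspa1b sum made 25.7%, 45.6% and 37.9% of the Hspa8 level with anti-VEGF-B and 30.1%, 21.6% and 27.4% with IgG. These shares overlapped between the groups, so that a rise beyond that of Hspa8 was not shown. Hspa5 (BiP), the HSP70 of the ER lumen, was at 85.9, 93.4 and 39.9 FPKM with anti-VEGF-B and at 107.7, 114.5 and 50.9 FPKM with IgG. Replicate 3 was the lowest library of both groups for Hspa5. The log2 fold change of -0.32 (SE 0.36, adjusted p = 0.517) was 0.064 without anti-VEGF-B replicate 3 and -0.69 without IgG replicate 3. In a limma fit with a replicate block, which treats equal numbers as pairs, Hspa5 was called lower (-0.32, adjusted p = 0.0141). No label says that equal numbers share an animal, culture or day. Hspa9, the HSP70 of the mitochondrial matrix, was at 101.6 to 110.4 FPKM with anti-VEGF-B and at 115.0 to 125.4 FPKM with IgG. Its groups were apart but the difference did not pass (log2 fold change -0.18, adjusted p = 0.0890). It was called lower after quantile normalization (-0.20, adjusted p = 0.0429) and was at 0.025 after median centring. Hspa14, Hspa13 and Hspa2, the remaining HSP70 members, had log2 fold changes of -0.26, -0.12 and 0.015 and were not called.

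Among the genes that act at the end of the HSP70 cycle, Hspbp1 fell and no HSP110 or BAG gene was called. Hspbp1, which binds HSP70 and promotes nucleotide release, fell from 4.78, 5.47 and 4.50 FPKM with IgG to 3.33, 3.18 and 3.35 FPKM with anti-VEGF-B. Its log2 fold change was -0.46 (SE 0.10, adjusted p = 0.0134), with an adjusted p of 0.0609 after quantile normalization. The HSP110 genes, which exchange nucleotide on HSP70, gave 0 calls of 3 in the limma fit, and 0 at an unadjusted p under 0.05. Among them Hsph1 was at 24.5, 30.7 and 28.7 FPKM with anti-VEGF-B and 22.3, 19.1 and 27.8 FPKM with IgG (log2 fold change 0.28, adjusted p = 0.146), and passed at 0.42 (adjusted p = 0.0422) without IgG replicate 3. Hspa4 was at 46.9 to 52.2 FPKM against 50.2 to 54.3 FPKM (log2 fold change -0.085, and 0.12 after median centring), and Hspa4l was at 21.1 to 23.3 against 21.8 to 25.4 FPKM. The BAG genes, another group of nucleotide exchange factors, also gave 0 calls of 6 in the limma fit, with 0 at an unadjusted p under 0.05 and log2 fold changes between -0.27 and 0.12. Bag3, which is known to be stress-inducible and to route clients to autophagy, was at 11.8, 12.8 and 9.59 FPKM with anti-VEGF-B and at 16.1, 13.9 and 11.9 FPKM with IgG. Bag6, which captures membrane proteins before insertion, was at 39.5 to 43.1 FPKM with anti-VEGF-B and 34.9 to 39.4 FPKM with IgG, groups that did not overlap (log2 fold change 0.12, adjusted p = 0.246, and 0.0271 after median centring). The remaining BAG genes, Bag1, Bag2, Bag4 and Bag5, overlapped between the groups.

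**Figure D2:**
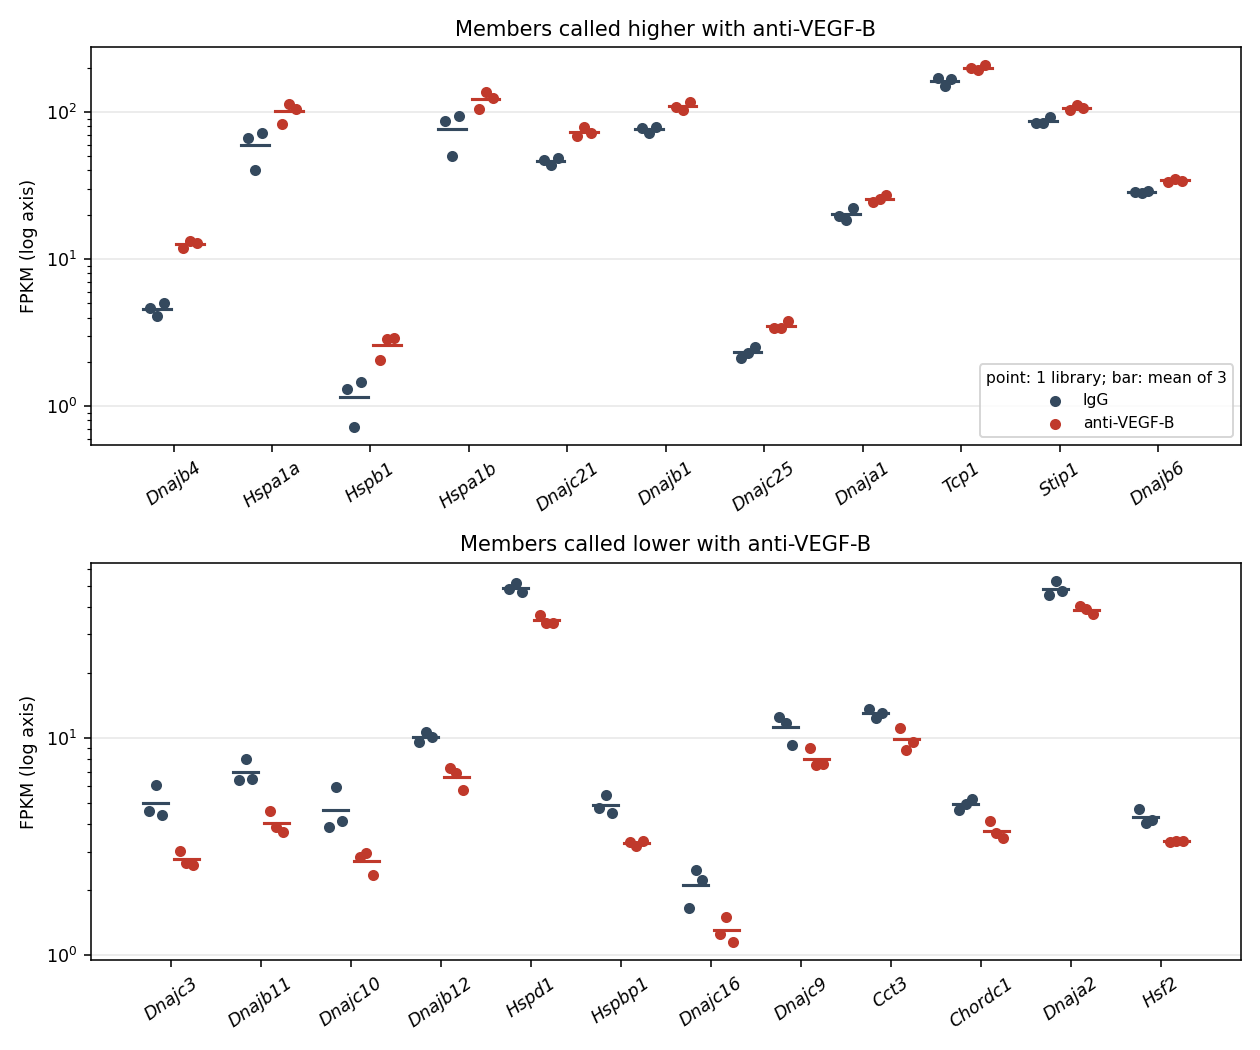
FPKM of each chaperone gene that was called, on a log axis, with 1 point per library (3 IgG, 3 anti-VEGF-B) and a bar at the mean of 3. The upper panel holds the 11 genes called higher, where the lowest anti-VEGF-B point of Dnajb4 at 11.9 FPKM lies above its highest IgG point at 5.04; the lower panel holds the 12 genes called lower.

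J proteins held 13 of the 23 calls, with more rises in the cytosol and nucleus and more falls in the ER. Of 31 J proteins tested, 6 rose and 7 fell, where 4.87% of all genes rose and 23.8% fell. In the cytosol and nucleus 5 of 13 rose and 2 fell, with a median log2 fold change of -0.077, and in the ER 1 of 10 rose and 5 fell, with a median of -0.31. After quantile normalization 5 rose and 1 fell in the cytosol and nucleus, and 1 rose and 3 fell in the ER; after median centring the counts were 5 and 0, and 1 and 4. Without anti-VEGF-B replicate 3 they were 3 and 0, and 0 and 3, and without IgG replicate 2 they were 3 and 0, and 1 and 4. Whether the compartments differ was not tested. The 4 mitochondrial J proteins (Dnaja3, Dnajc11, Dnajc15 and Dnajc19) and the 3 of vesicles or endosomes (Dnajc5, Dnajc6 and Dnajc13) were not called.

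Dnajb4, Dnajb1 and Dnajb6, the DNAJB proteins of the cytosol and nucleus that averaged 1 FPKM or more, all rose. Dnajb2 and Dnajb5, of the same group, lay under that minimum. In the limma fit without a minimum, Dnajb5 was called lower (log2 fold change -0.45, adjusted p = 0.0448) and Dnajb2 was not called (-0.25, adjusted p = 0.152). Dnajb4 (chr3:152178511-152210302, minus strand), an HSP40 of the DNAJB1 subgroup, had the largest rise of all chaperone genes. It was at 11.9, 13.4 and 12.9 FPKM with anti-VEGF-B and 4.65, 4.11 and 5.04 FPKM with IgG, a 2.77-fold difference of the means (log2 fold change 1.30, SE 0.098, adjusted p = 0.00229). Dnajb1 (chr8:83608193-83612653, plus strand), the main inducible HSP40 and partner of HSP70, was at 108.5, 102.9 and 116.8 FPKM with anti-VEGF-B and 77.6, 72.0 and 79.2 FPKM with IgG (log2 fold change 0.51, SE 0.077, adjusted p = 0.00511). Both kept the call under quantile normalization, median centring and each removal of 1 library. Dnajb6, known for holding back the aggregation of polyglutamine proteins, was at 33.5, 35.2 and 34.2 FPKM with anti-VEGF-B and at 28.7, 28.0 and 29.1 FPKM with IgG. Its difference was small (log2 fold change 0.25, SE 0.069, adjusted p = 0.0259), and the adjusted p rose to between 0.0517 and 0.0809 without anti-VEGF-B replicate 1, 2 or 3 or IgG replicate 2 or 3.

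The DNAJA genes Dnaja1 and Dnaja2, which serve the same cytosolic HSP70, went in opposite directions. Dnaja1 was at 24.4, 25.4 and 27.4 FPKM with anti-VEGF-B and 19.6, 18.5 and 22.3 FPKM with IgG, and rose (log2 fold change 0.34, SE 0.090, adjusted p = 0.0242). Dnaja2 was at 40.5, 39.3 and 37.0 FPKM with anti-VEGF-B and 45.3, 52.9 and 47.4 FPKM with IgG, and fell (log2 fold change -0.31, SE 0.082, adjusted p = 0.0237). The groups were apart for both genes. The adjusted p of Dnaja1 was 0.0528 to 0.0902 without anti-VEGF-B replicate 2 or 3 or IgG replicate 1 or 2, and that of Dnaja2 was 0.0508 to 0.0877 without anti-VEGF-B replicate 2 or 3 or IgG replicate 2. After median centring Dnaja2 was at -0.11 (adjusted p = 0.285). Dnaja4, a lower-level member of the subgroup, was at 1.44 to 1.76 FPKM against 1.98 to 2.56 FPKM and was not called (log2 fold change -0.31, adjusted p = 0.0627).

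Among the DNAJC proteins of the cytosol and nucleus, Dnajc21 rose and Dnajc9 fell. Dnajc21 (chr15:10446756-10470516, minus strand), which takes part in the maturation of the large ribosomal subunit, was at 68.8, 79.4 and 71.9 FPKM with anti-VEGF-B and 47.1, 43.3 and 48.2 FPKM with IgG. This was a 1.59-fold difference of the means (log2 fold change 0.66, SE 0.081, adjusted p = 0.00469), and it kept its call under both scalings and each removal of 1 library. Dnajc9, a histone chaperone that recruits HSP70, was at 9.03, 7.48 and 7.61 FPKM with anti-VEGF-B and 12.5, 11.7 and 9.24 FPKM with IgG (log2 fold change -0.42, SE 0.12, adjusted p = 0.0331). IgG replicate 3 lay closest to the anti-VEGF-B libraries. The call of Dnajc9 was lost without anti-VEGF-B replicate 2 or 3 or IgG replicate 1 or 2 (adjusted p 0.0852 to 0.102), after quantile normalization (0.155) and after median centring (0.205). The other DNAJC members of this compartment, Dnajc2, Dnajc7, Dnajc8, Dnajc17 and Dnajc24, had log2 fold changes between -0.17 and 0.086.

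In the ER, 5 of 10 J proteins fell, Dnajc25 rose and the other 4 were not called. Dnajc3 (p58IPK; chr14:118937976-118981697, plus strand), which binds misfolded protein in the lumen, was at 3.02, 2.66 and 2.61 FPKM with anti-VEGF-B and 4.59, 6.07 and 4.41 FPKM with IgG (log2 fold change -0.67, SE 0.12, adjusted p = 0.00875). Dnajb11 (ERdj3; chr16:22857845-22879634, plus strand), which hands clients to BiP, was at 4.62, 3.88 and 3.71 FPKM with anti-VEGF-B and 6.42, 8.03 and 6.46 FPKM with IgG (log2 fold change -0.65, SE 0.12, adjusted p = 0.00840). Dnajb12, a membrane J protein of ER-associated degradation that faces the cytosol, was at 7.31, 6.87 and 5.74 FPKM against 9.61, 10.7 and 10.1 FPKM (log2 fold change -0.55, SE 0.10, adjusted p = 0.00905). These 3 genes kept the call under both scalings and each removal of 1 library. Dnajc10 (ERdj5), a disulfide reductase that prepares proteins for degradation, was at 2.82, 2.97 and 2.34 FPKM against 3.89, 5.97 and 4.15 FPKM. Its log2 fold change was -0.60 (SE 0.15, adjusted p = 0.0190), with an adjusted p of 0.0700 without anti-VEGF-B replicate 3 and 0.0523 after quantile normalization.

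Dnajc16, singled out after its values were seen because it is the remaining ER gene called lower, was at 1.26, 1.50 and 1.15 FPKM with anti-VEGF-B and 1.65, 2.47 and 2.21 FPKM with IgG (log2 fold change -0.43, adjusted p = 0.0345). Its adjusted p was 0.0854 to 0.116 without anti-VEGF-B replicate 1 or 3 or IgG replicate 2 or 3, and 0.198 and 0.129 after quantile normalization and median centring. Dnajc25, a membrane J protein, rose from 2.14, 2.29 and 2.53 FPKM with IgG to 3.38, 3.42 and 3.79 FPKM with anti-VEGF-B (log2 fold change 0.45, SE 0.10, adjusted p = 0.0142, and 0.0613 without anti-VEGF-B replicate 3). Dnajb9 (ERdj4), which restrains the stress sensor IRE1 and is induced in the unfolded protein response, was at 15.4, 12.6 and 14.4 FPKM against 15.2, 16.3 and 15.9 FPKM. It was not called, at a log2 fold change of -0.15 that was 0.047 after median centring. Dnajc1, Dnajc14 and Dnajc18 were not called either, and neither was Dnajc4, which was assigned to no compartment.

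The HSP90 genes matched by symbol were the most abundant class. They gave 0 calls of 3 in the limma fit, with 2 higher at an unadjusted p under 0.05. Trap1, the mitochondrial HSP90, lay outside the symbol rule and was called lower in that fit (log2 fold change -0.63, adjusted p = 0.00848). Hsp90ab1 (chr17:45567775-45573271), the constitutive cytosolic HSP90 and the 19th most abundant gene listed, was at 1638, 1602 and 1653 FPKM with anti-VEGF-B and 1479, 1384 and 1461 FPKM with IgG. Its groups were apart by less than the test required (log2 fold change 0.18, SE 0.076, adjusted p = 0.104). Hsp90aa1, the inducible cytosolic HSP90, was at 258.6, 234.2 and 283 FPKM against 198.2, 200.3 and 240.4 FPKM, with an overlap through IgG replicate 3. It was not called at a log2 fold change of 0.28 (adjusted p = 0.0643), and was called without IgG replicate 3 (0.37, adjusted p = 0.0379) and after median centring (adjusted p = 0.0279). That library, which held the highest Hspa8, Hsph1 and Hsp90aa1 of the IgG group, also had the summed myeloid marker level of 37.5 FPKM, and the part of those cells in the result was not tested. Hsp90b1 (GRP94), the HSP90 of the ER, was at 140.3, 154.9 and 149.0 FPKM with anti-VEGF-B and at 157.2, 155.4 and 155.8 FPKM with IgG (log2 fold change -0.077, adjusted p = 0.410, and 0.12 after median centring).

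The cochaperones of HSP90 differed from each other. Stip1 (HOP), which bridges HSP70 and HSP90, was at 103.5, 110.5 and 106.5 FPKM with anti-VEGF-B and 84.5, 84.3 and 92.0 FPKM with IgG, and rose (log2 fold change 0.29, SE 0.071, adjusted p = 0.0176, and 0.0613 without anti-VEGF-B replicate 3). Chordc1 (Morgana), an HSP90 cochaperone with CHORD domains, was at 4.15, 3.64 and 3.46 FPKM against 4.65, 4.98 and 5.22 FPKM, and fell (log2 fold change -0.33, SE 0.10, adjusted p = 0.0394). The call of Chordc1 was lost without anti-VEGF-B replicate 2 or 3 or IgG replicate 2 or 3 (adjusted p 0.0766 to 0.143) and under quantile normalization (0.418) and median centring (0.335). Ahsa1, which stimulates the HSP90 ATPase, was at 7.69 to 7.84 FPKM against 7.41 to 8.30 FPKM, and its log2 fold change of -0.036 was 0.16 after median centring.

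The subunits of the CCT ring, which assemble in equal numbers, were not equal in transcript level. Of 7 subunits tested, Tcp1 (CCT1) rose, Cct3 fell and 5 overlapped between the groups. These calls made 28.6% of the subunits, near the 28.7% called among all genes, and the groups were apart in 49.0% of all genes. Cct6a was not analysed here. Tcp1 (chr17:12915701-12925067, plus strand) was at 200.0, 191.3 and 206.8 FPKM with anti-VEGF-B and 169.0, 148.8 and 166.4 FPKM with IgG (log2 fold change 0.30, SE 0.077, adjusted p = 0.0203). Cct3 (chr3:88297116-88321767, plus strand) was the lowest subunit in every library, at 11.1, 8.80 and 9.63 FPKM with anti-VEGF-B and 13.6, 12.3 and 13.0 FPKM with IgG (log2 fold change -0.37, SE 0.10, adjusted p = 0.0257). The highest subunit exceeded the lowest 18.0, 21.8 and 21.5 times with anti-VEGF-B and 14.7, 14.6 and 14.3 times with IgG. The call of Tcp1 was lost without anti-VEGF-B replicate 1 or 3 or IgG replicate 2 (adjusted p 0.0544 to 0.0812). That of Cct3 was lost without anti-VEGF-B replicate 2 or 3 or IgG replicate 1 or 3 (0.0604 to 0.0810) and after quantile normalization (0.181) and median centring (0.288).

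Cct2 was at 197.3, 184.8 and 189.3 FPKM with anti-VEGF-B and 199.9, 179.4 and 185.1 FPKM with IgG, and Cct5 was at 165.1, 163.2 and 172.0 against 168.5, 147.7 and 149.6 FPKM. Cct4 (77.2 to 84.3 against 72.2 to 92.3 FPKM), Cct8 (67.2 to 67.9 against 63.1 to 75.2 FPKM) and Cct7 (42.4 to 46.2 against 40.2 to 44.7 FPKM) also overlapped. The log2 fold changes of these 5 subunits lay between -0.045 and 0.10, above the median of all genes. The median rose with level, to -0.045 for all genes at or over 10 FPKM. It was 0.099 for those over 100 FPKM, where Cct2 and Cct5 lie. The sign was not stable for Cct2 and Cct4, at -0.085 and -0.011 after quantile normalization, nor for Cct8, at 0.16 after median centring.

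**Figure D3:**
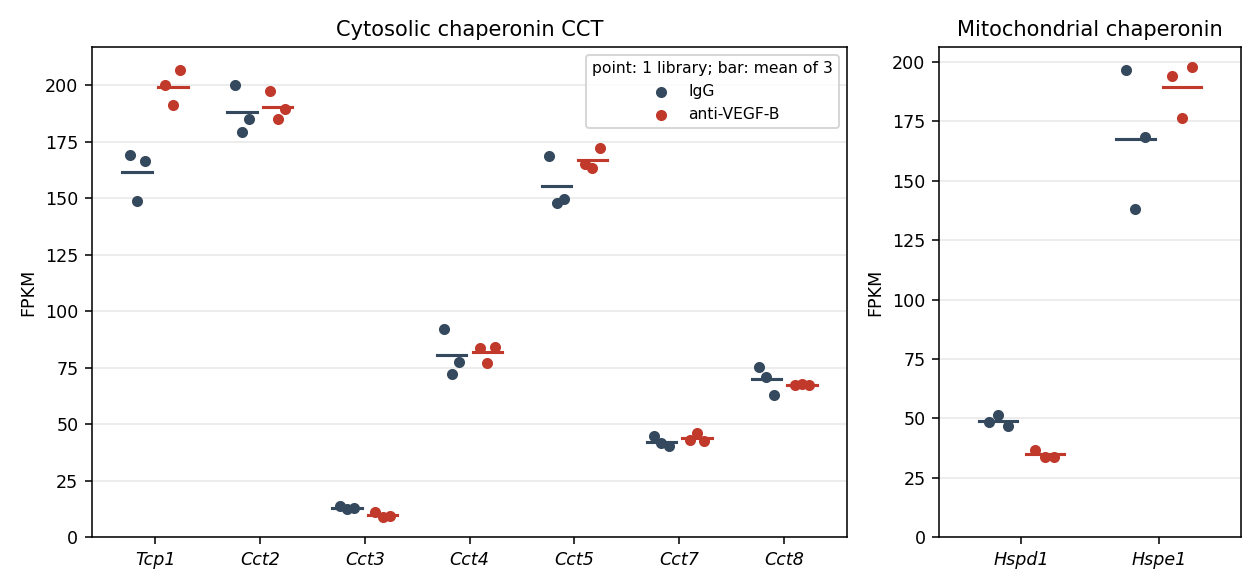
FPKM of the 7 CCT subunits and of the mitochondrial chaperonin pair in each library (points; bars mark the mean of 3 libraries per group). Tcp1 is higher with anti-VEGF-B (191.3 to 206.8 against 148.8 to 169.0 FPKM), Cct3 is lower, and in the right panel Hspd1 is lower while the 2 groups overlap for Hspe1.

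The mitochondrial chaperonin is built from Hspd1 (HSP60), which forms the chamber, and Hspe1 (HSP10), which forms its lid. Hspd1 (chr1:55077835-55088243, minus strand) was at 36.9, 33.6 and 34.0 FPKM with anti-VEGF-B and 48.5, 51.6 and 47.0 FPKM with IgG, and fell (log2 fold change -0.48, SE 0.075, adjusted p = 0.00607). This call held under both scalings and each removal of 1 library. Hspe1 was at 194.1, 176.6 and 197.9 FPKM with anti-VEGF-B and at 196.7, 138.2 and 168.3 FPKM with IgG, and was not called (log2 fold change 0.19, SE 0.12, adjusted p = 0.252). The 2 genes run head to head on opposite strands of chromosome 1 and overlap by 112 bases. Whether the strand of the reads was used in counting is not given in the sources used here, and this also touches Tcp1 (645 bases shared with Mrpl18, at 56.1 FPKM) and Dnaja1 (608 bases shared with Smu1, at 21.1 FPKM).

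Hspb1 (HSP25/27; chr5:135887919-135889563, plus strand), a small heat shock protein that holds unfolded protein without using ATP, was the single small heat shock protein that reached a mean of 1 FPKM. It was at 2.07, 2.88 and 2.93 FPKM with anti-VEGF-B and 1.30, 0.719 and 1.46 FPKM with IgG, a 2.26-fold difference of the means. It rose by a log2 fold change of 0.76 (SE 0.16, adjusted p = 0.0121), which was 0.60 without IgG replicate 2, the lowest library. Hsf1, the factor that drives the heat shock response, was at 1.04, 0.858 and 0.648 FPKM with anti-VEGF-B and 0.982, 1.08 and 0.724 FPKM with IgG. Its mean of 0.890 FPKM lay under the minimum, and in the fit without that minimum its log2 fold change was -0.063 (adjusted p = 0.694). Hsf2, a related factor, was at 3.32, 3.34 and 3.37 FPKM against 4.74, 4.05 and 4.19 FPKM and fell by the narrowest margin of all calls (log2 fold change -0.29, SE 0.097, adjusted p = 0.0497). The call of Hsf2 was lost on removal of any library (adjusted p 0.0562 to 0.131) and after quantile normalization (0.682) and median centring (0.541).

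The 10 genes under the minimum were Hsf1, Hspa1l, Hspb6, Hspb7, Dnajb2, Dnajb5, Dnajc12, Dnajc27, Dnajc28 and Dnajc30, with means of 0.159 to 0.935 FPKM. In the fit without a minimum, Dnajc27 (0.615, 0.617 and 0.649 against 1.05, 1.53 and 1.15 FPKM; log2 fold change -0.46, adjusted p = 0.0186) and Dnajb5 (0.331, 0.417 and 0.240 against 0.661, 1.28 and 0.583 FPKM; log2 fold change -0.45, adjusted p = 0.0448) were called lower and the other 8 were not called. These 2 were named after their values were seen. Just outside the minimum lay Dnajc27 (0.935 FPKM), Dnajb2 (0.924), Hsf1 (0.890) and Hspa1l (0.802), and just inside it Dnajc6 (1.12 FPKM), Dnajc16 (1.71), Hspb1 (1.89) and Dnaja4 (1.94). Hspb11 and Hspbap1 matched the symbols only, since they are not heat shock proteins by function, and neither was called as deposited. Hspbap1 was called higher after quantile normalization (log2 fold change 0.33, adjusted p = 0.0296) and median centring (0.30, adjusted p = 0.0362), and Dnajc6, of the vesicle group, after quantile normalization (0.36, adjusted p = 0.0489). Dnajc6 averaged 1.25 FPKM with anti-VEGF-B and 0.985 FPKM with IgG, so that only the anti-VEGF-B mean reached the minimum. Its groups overlapped as deposited.

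A few transcripts made most of the chaperone pool, and the pool as a share of all listed FPKM was higher in each anti-VEGF-B library. Hsp90ab1 alone made 33.0% of the summed FPKM of the 68 genes, Hspa8 12.3% and Hsp90aa1 5.07%, and none of them was called. The 9 chaperone genes over 100 FPKM made 71.3% of that sum. Among all genes tested over 100 FPKM, 16.7% rose and 5.93% fell, with a median log2 fold change of 0.099. Whether the higher share of the chaperone pool goes beyond that of other abundant genes was not tested. The 68 genes summed to 4999, 4811 and 4919 FPKM with anti-VEGF-B and to 4520, 4142 and 4513 FPKM with IgG, which is 1.81%, 1.84% and 1.81% against 1.63%, 1.59% and 1.70% of the listed sum. The cytosolic and nuclear genes summed to 4106 to 4286 FPKM with anti-VEGF-B and 3413 to 3812 FPKM with IgG, whereas the sums of the ER genes (243.5 to 306.9 against 276.5 to 343.8 FPKM) and the mitochondrial genes (329.9 to 355.9 against 327.0 to 385.1 FPKM) overlapped.

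Of the 36 chaperone genes at or over 10 FPKM, 8 rose and 3 fell, and of the 32 under 10 FPKM, 3 rose and 9 fell. Among all genes tested the same contrast was present: 9.46% rose and 18.0% fell at or over 10 FPKM, with a median log2 fold change of -0.045, and 2.23% rose and 27.2% fell under 10 FPKM, with a median of -0.21. All 4 ER genes with a log2 fold change under -0.5 were under 10 FPKM, while Hsp90b1, Hspa5 and Dnajb9, the most abundant genes of that compartment, were not called. By compartment, 10 of 42 cytosolic and nuclear genes rose and 6 fell (median log2 fold change 0.0072), 1 of 13 ER genes rose and 5 fell (median -0.19), and 1 of 7 mitochondrial genes fell and 0 rose in the limma fit, with 0 higher at an unadjusted p under 0.05 (median -0.16). The counts for the cytosol and nucleus became 9 and 1 after quantile normalization and 12 and 1 after median centring, and those of the ER 1 and 3, and 1 and 4. Of the mitochondrial genes 2 fell after quantile normalization. Without anti-VEGF-B replicate 3 the counts were 4 and 1 in the cytosol and nucleus and 0 and 3 in the ER, and without IgG replicate 2 they were 7 and 2, and 1 and 4.

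**Figure D4:**
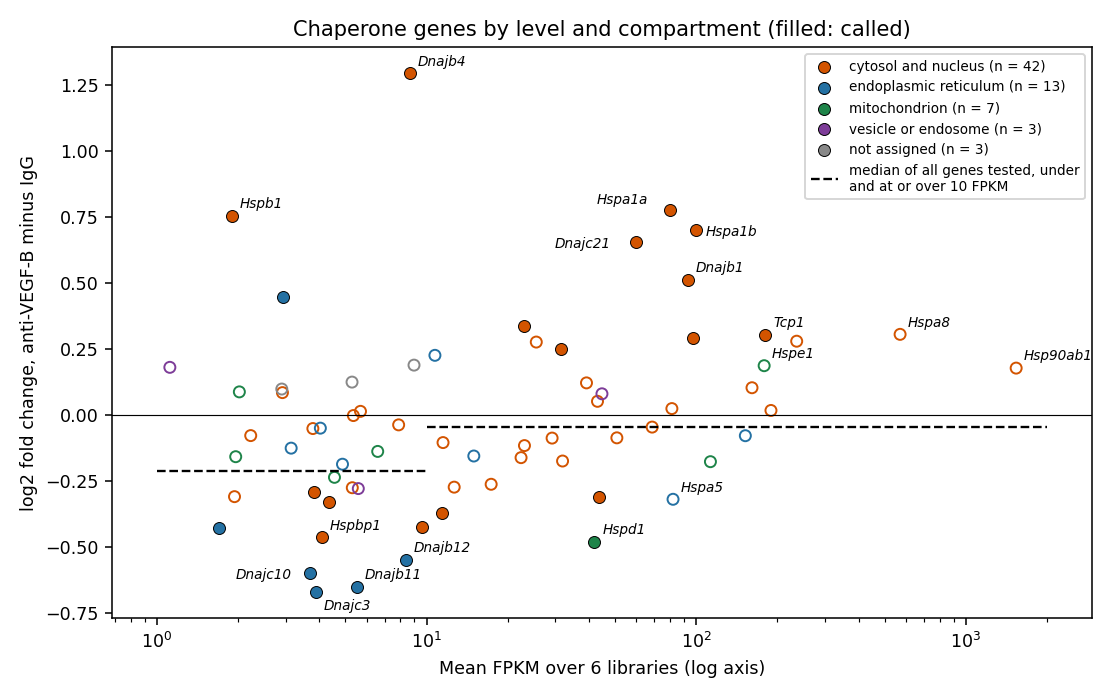
Log2 fold change of each of the 68 chaperone genes against its mean FPKM over 6 libraries (log axis), coloured by compartment and filled where called. Dashed lines mark the median of all genes under 10 FPKM (-0.21) and at or over 10 FPKM (-0.045); called ER genes sit at the low end of the axis and most called cytosolic genes above 10 FPKM.

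Ratios between 2 chaperone transcripts of the same library were formed from FPKM + 1, so that a scale factor of the library cancels except for the added 1, which weighs most on low genes such as Hsf1 and Dnajb4. Of 14 ratios, 4 were higher in every anti-VEGF-B library, 3 were lower in every one, and 7 overlapped. With 3 against 3 the smallest p that the two-sided exact permutation test allows is 0.1, which each of these 7 ratios that were apart reached (adjusted p = 0.2 over the 14), so that none could pass the threshold. On this scale the ratio of Dnajb4 to Dnajb1 was 0.118, 0.138 and 0.118 with anti-VEGF-B and 0.0718, 0.0699 and 0.0753 with IgG (log2 difference 0.78, and 0.93 with 0.1 added in place of 1). That of Dnaja1 to Dnaja2 was 0.612, 0.655 and 0.746 against 0.445, 0.362 and 0.481 (log2 difference 0.65). That of Hspd1 to Hspe1 was 0.194, 0.195 and 0.176 against 0.250, 0.378 and 0.283 (log2 difference -0.67). Tcp1 to Cct2 was 1.01, 1.03 and 1.09 against 0.846, 0.830 and 0.899 (log2 difference 0.29). Dnajb1 to Dnajb6 was also higher (log2 difference 0.26), and Hsp90b1 to Hsp90ab1 (-0.26) and Bag3 to Bag6 (-0.40) were lower. The ratios of Hspa1a, Hspa1b, Hspa5 and Hspa9 to Hspa8, of Hsp90aa1 to Hsp90ab1, of Hsph1 to Hspa4 and of Hsf2 to Hsf1 overlapped.

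**Figure D5:**
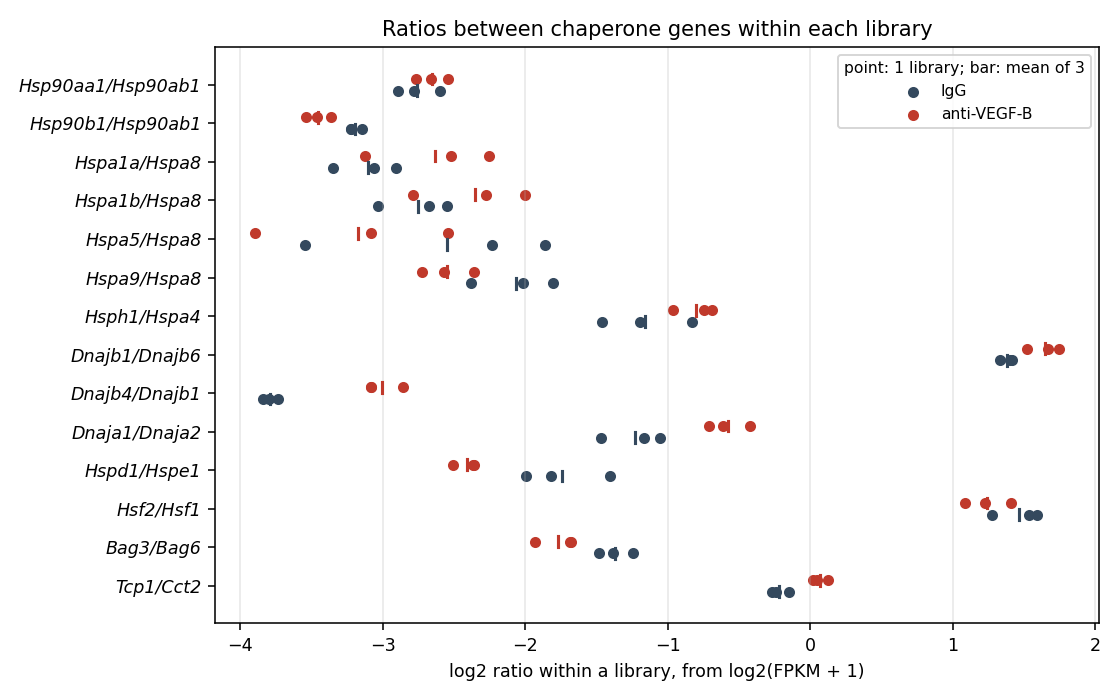
Log2 ratio of 14 pairs of chaperone genes within each library, from log2(FPKM + 1), with 1 point per library and a bar at the mean of 3 libraries per group. The groups lie apart for Dnajb4/Dnajb1, Dnaja1/Dnaja2, Dnajb1/Dnajb6 and Tcp1/Cct2 (higher with anti-VEGF-B) and for Hspd1/Hspe1, Hsp90b1/Hsp90ab1 and Bag3/Bag6 (lower).

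Chaperone genes outside the symbol rule were taken from a fixed list of 50, of which 49 were tested. Of these, 13 fell and 2 rose, with a median log2 fold change of -0.13 (all genes: 23.8% lower, 4.87% higher, median -0.15). After median centring 8 fell and 7 rose, and after quantile normalization 7 fell and 2 rose. Without anti-VEGF-B replicate 3, 6 fell and 0 rose (1 at an unadjusted p under 0.05), and without IgG replicate 2, 8 fell and 0 rose (2 at an unadjusted p under 0.05). Of the HSP90 cochaperones 6 of 18 fell, among them Fkbp5, an immunophilin of the steroid receptor complex (1.50, 1.73 and 1.57 against 2.62, 2.98 and 3.17 FPKM; log2 fold change -0.59, adjusted p = 0.00756), and Ppp5c, a phosphatase bound to HSP90 (7.14, 7.51 and 7.17 against 10.8, 12.5 and 10.3 FPKM; -0.56, adjusted p = 0.00723). Of the mitochondrial chaperones and proteases 2 of 7 fell: Trap1, the mitochondrial HSP90 (5.09, 5.59 and 4.93 against 7.92, 10.2 and 7.82 FPKM; log2 fold change -0.63, adjusted p = 0.00848), and Lonp1, the matrix protease (59.3, 62.2 and 49.2 against 76.3, 102.7 and 76.4 FPKM; -0.57, adjusted p = 0.0156, and 0.0570 without anti-VEGF-B replicate 3). Of the prefoldin and chaperonin helpers 3 of 11 fell, Uri1 (log2 fold change -0.72, adjusted p = 0.00700) and Pdrg1 (-0.75, adjusted p = 0.0143, and 0.0546 without anti-VEGF-B replicate 3) most of all, with Pdcl, named after its values were seen, at -0.37 (adjusted p = 0.0276). The adjusted p of Pdcl was 0.0694 to 0.0871 without anti-VEGF-B replicate 2 or 3 or IgG replicate 2 or 3, and 0.147 and 0.194 after quantile normalization and median centring.

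Among the further HSP70 cochaperones, Hyou1 fell and Hscb rose. Hyou1 (GRP170), the nucleotide exchange factor of BiP, was at 3.21, 2.92 and 2.73 FPKM with anti-VEGF-B and 3.81, 4.48 and 3.82 FPKM with IgG (log2 fold change -0.35, adjusted p = 0.0365). Its adjusted p was 0.0555 to 0.131 on removal of any library but IgG replicate 1, and 0.352 and 0.220 after quantile normalization and median centring. Hscb, the J protein of iron-sulfur cluster assembly, named after its values were seen, was at 27.9, 25.1 and 31.8 FPKM against 24.1, 20.6 and 23.1 FPKM (log2 fold change 0.31, adjusted p = 0.0488). Its adjusted p was 0.0526 to 0.169 on removal of any library but anti-VEGF-B replicate 2, and 0.0503 after quantile normalization.

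Of 3 other heat shock factor targets tested, Ubb, a polyubiquitin gene induced by heat, rose and the other 2 were not called. Ubb was at 1010, 903 and 1071 FPKM with anti-VEGF-B and 839, 707 and 810 FPKM with IgG (log2 fold change 0.34, adjusted p = 0.0312). The call was lost without anti-VEGF-B replicate 1 or 3 or IgG replicate 2 or 3 (adjusted p 0.0655 to 0.130).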

How the data were processed

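RNA-Seq libraries of activated CD4+ T cells (3 with anti-VEGF-B, 3 with IgG) were compared. The authors aligned reads of stranded libraries to GRCm38 with hisat2, quantified genes with StringTie and Ballgown, and deposited 1 table of FPKM with 1 value per gene and library; no normalization between libraries is stated, and 0 columns of values per sample lay outside the sample labels. The methods also mention raw counts, but the values are not whole numbers and at most 1.37% of low values shared a step between libraries, so that depth is unknown and no count model was run. The error given is the spread between replicates.

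Genes that averaged 1 FPKM or more were fitted on the log2(FPKM + 1) scale with limma 3.58.1 (R 4.3.3; empirical Bayes with trend, no covariate), with Benjamini-Hochberg adjustment over all genes tested, and the method was tested on simulated data. Ratios were compared with two-sided exact permutation tests. Classes and compartments were assigned by hand. Alternatives were quantile normalization, median centring, a pseudocount of 0.1, no filter, a minimum of 5 FPKM, no moderation, a replicate block, removal of each library, and limits of an unadjusted p under 0.05 and a log2 fold change beyond 0.5 in size. Values were named for up to 5 called genes per class with the lowest p, a fixed set of core chaperones, genes past an absolute log2 fold change of 0.5 with groups apart, genes of the ratios, and the 2 called genes with the lowest p in each list of further chaperones. Other members are named to account for all 68, and further genes are said to have been named after their values were seen. Members and lists were chosen with earlier results of these data known. Gene positions are those of the deposited table. Some genes that were tested are counted but not reported here.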

Additional observations from a re-analysis of the deposited data

How the results depend on the processing

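Quantile normalization called 6 chaperone genes lower and 12 higher (all genes: 913 and 880), median centring 6 and 14 (807 and 1365), a minimum of 5 FPKM 6 lower (989), and limits of an unadjusted p under 0.05 and a log2 fold change beyond 0.5 in size called 4 and 6 (998 and 123). Of the 12 and 11 genes called lower and higher, 5 and 10 kept their call after quantile normalization and 6 and 11 after median centring. The median log2 fold change of the 68 genes was 0.060 and 0.15 under these scalings, which moved the median of all genes from -0.15 to 0.0077 and 0.049. Without moderation limma called 0 of the 68 genes (18 lower and 11 higher at an unadjusted p under 0.05), and 6 and 6 of all genes. Removing 1 library gave 5 to 11 lower and 4 to 12 higher chaperone genes, the fewest without anti-VEGF-B replicate 3 (695 lower and 164 higher of all genes, against up to 2071 and 396 without IgG replicate 1). In all 8 fits with another scaling or without 1 library, Dnajb1, Dnajb4, Dnajc21 and Hspb1 were higher and Dnajb11, Dnajb12, Dnajc3 and Hspd1 were lower. The pseudocount of 0.1 kept every call of the 68 genes, and no filter lost that of Hsf2.

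The sign turned in genes that were not called: after quantile normalization Ahsa1 was at 0.14, Cct2 at -0.085 and Cct4 at -0.011; after median centring Ahsa1 was at 0.16, Cct8 at 0.16, Dnajb9 at 0.047, Hsp90b1 at 0.12, Hspa4 at 0.12 and Hspa9 at 0.025. Without 1 library Cct2 was at -0.015 to 0.063, Cct4 at -0.050 to 0.13, Cct8 at -0.11 to 0.011 and Hspa5 at -0.69 to 0.064. The cause of these changes was not tested.

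Of the further chaperone genes, 7 fell after quantile normalization, 8 after median centring (7 rose), 6 with a minimum of 5 FPKM (1 rose), and 0 without moderation, where 15 lower and 2 higher passed an unadjusted p under 0.05 in limma. The pseudocount of 0.1 and no filter gave 1 higher, the limits on fold change 0 higher, and removal of 1 library 6 to 13 lower and 0 to 2 higher. Of the proteasome genes, 6 fell after quantile normalization, 0 after median centring (2 rose), 0 without moderation and 0 in either direction under the limits on fold change, with 1 to 10 lower and 0 to 1 higher without 1 library. Of the unfolded protein response genes, 4 fell after median centring (7 rose), 5 with a minimum of 5 FPKM, 0 without moderation, and 4 under the limits on fold change (0 rose), with 5 to 8 lower and 0 to 2 higher without 1 library.

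No label says whether equal replicate numbers mark paired samples. Deviations of libraries with the same number correlated at -0.030, 0.11 and 0.089, and not every library correlated best with its own number. These small correlations cannot show whether the samples were paired. With a replicate block in limma, 12 chaperone genes were lower and 13 higher. Hspa5 (adjusted p = 0.0141) and Hspa14 were gained as lower, Hsp90aa1 (0.0203) and Hsp90ab1 (0.0430) as higher, and Chordc1 and Hsf2 were lost. Since depth is unknown, what counting error adds for genes near 1 FPKM cannot be given.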

Other observations

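Gene groups near the chaperones were read beside them as a description. Of 31 proteasome subunits, 12 fell and 1 rose with anti-VEGF-B (median log2 fold change -0.12; all genes 23.8% lower, 4.87% higher, median -0.15). The exception was Psmc6, an ATPase subunit of the cap, at 122.4, 118.9 and 124.7 FPKM with anti-VEGF-B and 100.6, 95.5 and 104.2 FPKM with IgG (log2 fold change 0.28, adjusted p = 0.0179), named after its values were seen. Its adjusted p was 0.0715 without anti-VEGF-B replicate 3 and 0.0507 without IgG replicate 2. The 12 subunits that fell had log2 fold changes between -0.43 and -0.25, with Psmd1 the lowest (7.57, 7.39 and 6.89 against 11.1, 10.0 and 9.51 FPKM; adjusted p = 0.0123, and 0.0516 without anti-VEGF-B replicate 3). After median centring limma called 0 of the 31 lower (1 at an unadjusted p under 0.05) and 2 higher. Without anti-VEGF-B replicate 3 it called 1 lower, 3 on removal of either anti-VEGF-B replicate 2 or IgG replicate 2, and 4 and 6 on removal of replicate 1 of IgG and of anti-VEGF-B.

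Of 22 genes of the unfolded protein response tested, 8 fell and 2 rose (median log2 fold change -0.23), with 4 and 7 after median centring, 5 and 0 without anti-VEGF-B replicate 3 and 5 and 1 without IgG replicate 2. The genes named here were chosen after their values were seen. Xbp1, the transcription factor activated by IRE1, was at 6.12, 8.26 and 5.58 FPKM with anti-VEGF-B and 13.7, 20.4 and 15.2 FPKM with IgG (log2 fold change -1.18, adjusted p = 0.00491). Herpud1, which serves ER-associated degradation, was at 4.84, 6.16 and 4.50 FPKM against 10.8, 16.2 and 8.57 FPKM (log2 fold change -1.03, adjusted p = 0.00950). Calr, a lectin chaperone of the lumen, was at 83.8, 84.0 and 77.5 FPKM against 109.0, 121.2 and 101.8 FPKM (log2 fold change -0.43, adjusted p = 0.00961, and 0.0651 after median centring). The 2 that rose were Atf4, the factor translated when eIF2 is phosphorylated, at 756, 763 and 770 FPKM against 628, 526 and 590 FPKM (log2 fold change 0.40, adjusted p = 0.0127, and 0.0534 without anti-VEGF-B replicate 3), and Trib3, a target of that pathway, at 44.7, 48.7 and 43.1 FPKM against 38.2, 37.7 and 35.4 FPKM (0.29, adjusted p = 0.0243). The call of Trib3 was lost on removal of any library but IgG replicate 1 (adjusted p 0.0511 to 0.0740).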
